A study of Mus musculus with 26 samples.

Results

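The 10 genes described here, Pecam1, Cdh5, Cldn5, Tek, Tie1, Kdr, Eng, Vwf, Emcn and Sox17, are genes by which endothelial cells are commonly recognised. They were chosen by symbol, and each was found once among the 21031 genes of the authors' deposited table of normalized counts and the 57010 of the count table. All 10 were measured in 26 poly(A) RNA libraries of mesenteric arteries from male mice aged 8 weeks. The study compared mice lacking Panx1, the gene of the large-pore membrane channel pannexin 1, and mice with a changed residue at each of 3 Panx1 phosphorylation sites, with controls. There were 3 global Panx1 KO and 3 WT libraries. The Y198F group (genotype label Y198F+/+) and its controls (Y198F-/-) had 3 libraries each, as did the Y308F group (Y308F+/+) and its controls (Y308F-/-). The S205A group (S205A+/+) and its controls (S205A-/-) had 4 each, although the design text gives 3 vascular trees per genotype. Controls were littermates or WT mice, and the Panx1 loss was global. The labels do not say whether each library is 1 animal, so p-values measure the spread between libraries.

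The endothelium is the single layer of cells that lines every vessel, and in an artery it lies inside a much thicker wall of smooth muscle. Its cells hold to each other through adherens and tight junctions, sense vascular growth factors and angiopoietins through receptor tyrosine kinases, and store coagulation proteins for release. Transcription factors of the ETS and SOXF families hold endothelial genes active, and arteries, capillaries and veins use these genes to different degrees.

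Promoter sequence is shown for 3 members because across 17 of the 26 libraries Vwf moved with most of the other members and Kdr and Emcn moved apart from it. Each run is the 250 bases before the annotated start of the canonical transcript, read from GRCm39, 5′ to 3′ on the gene's strand. Capitals mark the ETS-type words CCGGAA and AGGAAG on either strand, which do not overlap each other. The windows are chr6:125529661-125529910 on the plus strand for Vwf, chr5:76139119-76139368 on the minus strand for Kdr and chr3:137046544-137046793 on the plus strand for Emcn. None of these 3 windows overlaps an annotated exon.
Vwf: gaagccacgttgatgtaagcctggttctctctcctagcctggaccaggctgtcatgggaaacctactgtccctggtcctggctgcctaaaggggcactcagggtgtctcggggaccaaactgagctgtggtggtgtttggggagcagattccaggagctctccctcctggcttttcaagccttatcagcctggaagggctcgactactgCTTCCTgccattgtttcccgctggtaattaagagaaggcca
Kdr: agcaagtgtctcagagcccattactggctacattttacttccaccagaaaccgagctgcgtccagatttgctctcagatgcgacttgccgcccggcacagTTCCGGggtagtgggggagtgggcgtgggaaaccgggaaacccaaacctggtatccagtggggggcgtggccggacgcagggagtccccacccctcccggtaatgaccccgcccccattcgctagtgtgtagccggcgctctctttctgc
Emcn: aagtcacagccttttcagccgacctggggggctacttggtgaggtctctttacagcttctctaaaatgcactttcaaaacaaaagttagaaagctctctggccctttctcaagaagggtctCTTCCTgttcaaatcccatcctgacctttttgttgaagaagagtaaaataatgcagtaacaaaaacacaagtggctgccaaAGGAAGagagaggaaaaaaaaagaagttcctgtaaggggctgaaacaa

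Emcn held AGGAAG in this window at 2 places, 129 bases before the start on the reverse strand and 48 bases before on the gene's strand. Vwf held AGGAAG 41 bases before the start and Kdr held CCGGAA 150 bases before, both on the reverse strand. Over the 9 members whose window was examined CCGGAA was present in 1 window, against 12.4% of 21664 mouse promoters of the same length, and AGGAAG in 4, those of Tie1, Vwf, Emcn and Sox17, against 28.9%. The SOX-type word ATTGTT was in 2 windows against 9.68% of promoters, the GATA-type word GATAA in 3 against 22.4%, the FOX-type word TAAACA in 1 against 11.4%, and the TATA-box word TATAAA in 0 against 11.9%, each on either strand.

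Several features of the libraries bear on every value below. Total gene counts ran from 14.9 M to 23.6 M per library. The library names of 9 libraries carry numbers that begin with 22 (Y198F 1 to 3, S205A control 1 to 3, S205A 2 to 4), called the 22 series here; what the numbers mean is not given in the labels. In these 9, ribosomal RNA genes took 0.0831% to 0.139% of counts, against 2.32% to 7.09% in the other 17. All Y198F libraries and none of their controls are in the 22 series, so series and mutation cannot be told apart in that comparison. Panx1 itself was at 0.582, 0.944 and 1.36 CPM, a count scaled to the library size, in the KO libraries and at 4.96, 3.38 and 4.89 CPM in WT. The library labelled S205A control 1 had Panx1 at 0.830 CPM from 16 counts, inside the KO range.

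Of the junction and adhesion genes, Pecam1 and Cldn5 had the highest levels per length of the 10 members. Pecam1 (CD31), an adhesion molecule of endothelial contacts (ENSMUSG00000020717, chromosome 11, 106543689 to 106641454), had a mean of 227 ± 50.1 CPM per kb of exon in WT arteries (SD, n = 3). Cldn5, a tight junction claudin (ENSMUSG00000041378, chromosome 16, 18595597 to 18597012), followed at 137 ± 21.9 CPM per kb, and Cdh5, the VE-cadherin of adherens junctions (ENSMUSG00000031871, chromosome 8, 104828231 to 104871143), at 56.5 ± 12.7. Pecam1 ranked first of the 10 in 25 of 26 libraries on this per-length scale, and Cldn5 in the remaining 1.

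The receptors spanned a wide range. Tie1, the orphan partner of the angiopoietin receptor (ENSMUSG00000033191, chromosome 4, 118328385 to 118347261), had 58.1 ± 11.9 CPM per kb in WT, and Tek, the angiopoietin receptor TIE2 (ENSMUSG00000006386, chromosome 4, 94627291 to 94763224), had 39.7 ± 8.77. Eng, the TGF-beta and BMP co-receptor endoglin (ENSMUSG00000026814, chromosome 2, 32535543 to 32574661), had 39.3 ± 4.17. Kdr, the main VEGF receptor (ENSMUSG00000062960, chromosome 5, 76093487 to 76139884), was far lower at 2.85 ± 0.993 CPM per kb and ranked 9th in all 26 libraries.

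Of the remaining members, Vwf, the von Willebrand factor that binds platelets (ENSMUSG00000001930, chromosome 6, 125523737 to 125663642), had 59.1 ± 21.3 CPM per kb in WT. Sox17, a SOXF transcription factor of arterial endothelium (ENSMUSG00000025902, chromosome 1, 4561151 to 4567784), had 20.6 ± 1.42. Emcn, the sialomucin endomucin of capillaries and veins (ENSMUSG00000054690, chromosome 3, 137046794 to 137138999), was the lowest at 1.38 ± 0.677 and ranked 10th in all 26 libraries. In the WT order per kb of the union of exons, the libraries of Vwf, Tie1, Cdh5, Tek and Eng overlapped from each gene to the next. Those of Kdr and Emcn overlapped too, while Pecam1, Cldn5, Eng and Sox17 each stood clear of their lower neighbour. Per kb of the longest transcript the WT libraries of Vwf (129, 141 and 66.0) overlapped those of Cldn5 (156, 142 and 113), Pecam1 had a mean of 467 ± 103 (SD, n = 3), and the means of Tek and Eng changed places. Counts of Eng (860 exonic bases shared with Fpgs on the opposite strand), Sox17 (1011 with Gm37587), Tie1 (238 with Gm70435) and Cdh5 (87 with Gm64067) are uncertain to that degree, since the strand setting of the counting is not given in the sources used here.

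**Figure D1:**
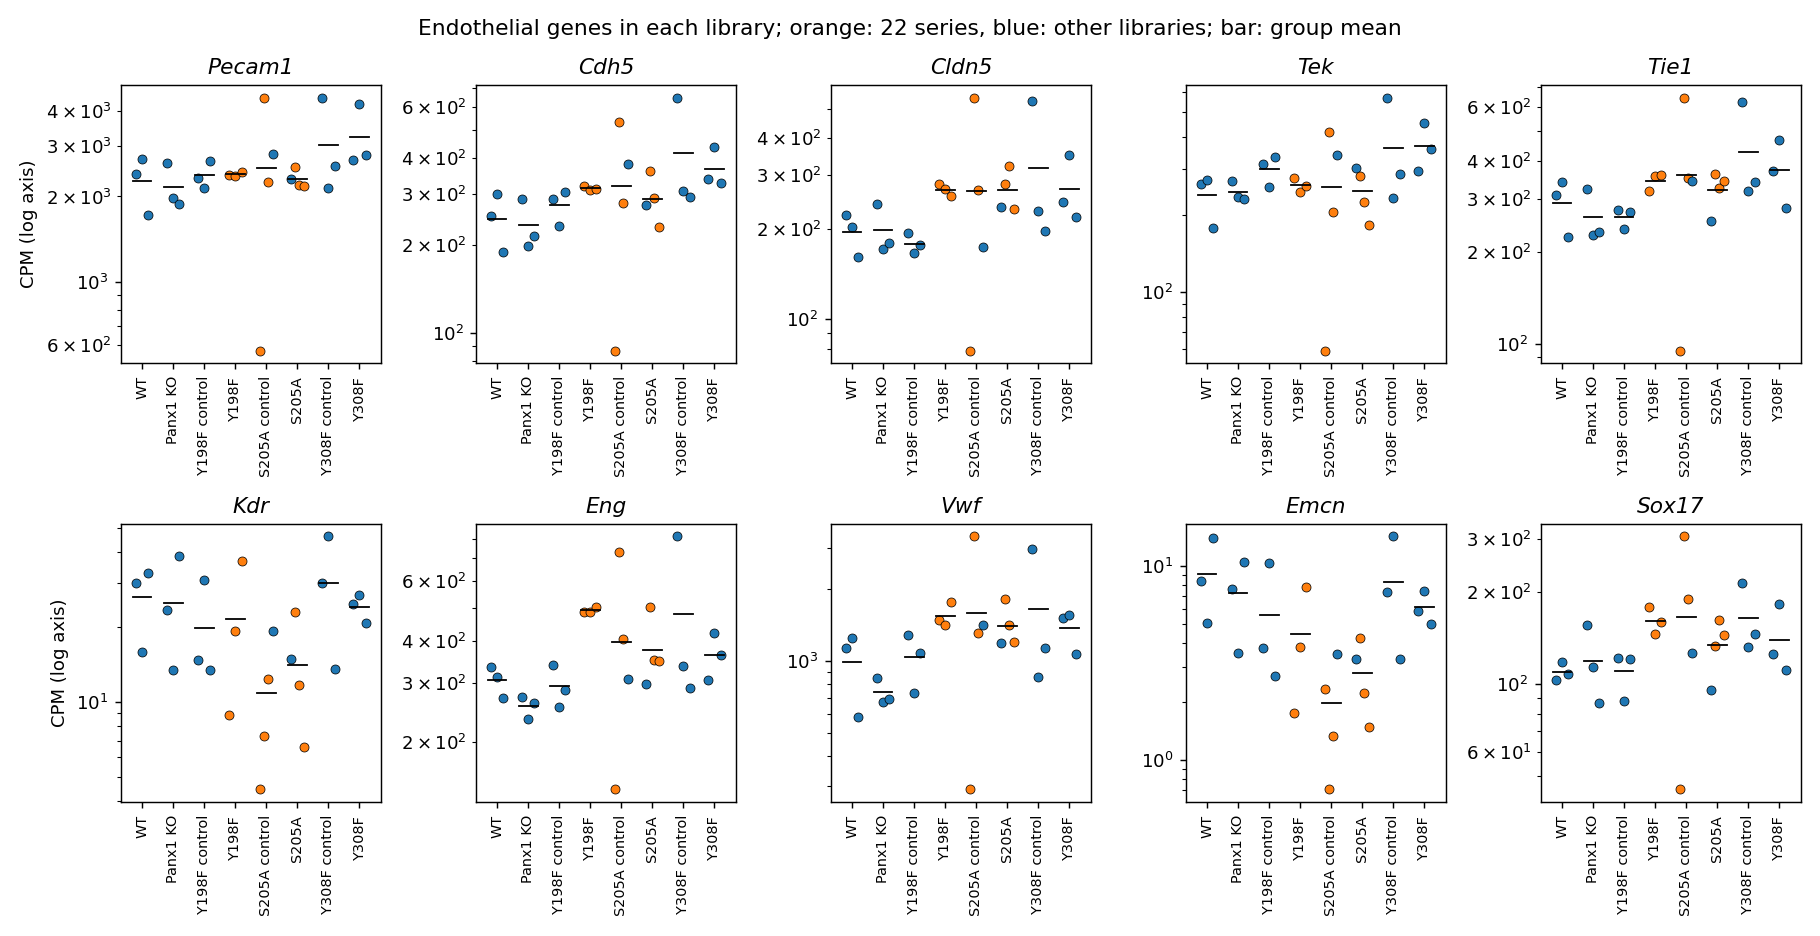
Level of each gene in each of 26 libraries, in CPM on a log axis, by group; orange points are the 9 libraries of the 22 series, blue points the other 17, and bars group means. S205A control 1 is the lowest point in the 9 panels other than Emcn, where S205A control 2 is lowest.

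Single libraries stood far from the rest for most members. In S205A control 1 Pecam1 was at 575 CPM, Cdh5 at 86.6, Tek at 59.3 and Vwf at 289, the lowest of all 26 libraries for each. In S205A control 2, of the same group, Pecam1 was at 4449 CPM, Cdh5 at 535, Tek at 419 and Vwf at 3342. For the 8 members other than Kdr and Emcn these were the lowest and highest libraries of the 22 series, and their ratio ran from 5.03-fold for Eng to 11.6-fold for Vwf. Outside the 22 series, Y308F control 1 was the highest for the same 8 genes, with Pecam1 at 4420 CPM and Vwf at 2967. In bulk arteries, fewer endothelial cells and less RNA of these genes per cell cannot be told apart.

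Markers of the other wall cells were measured beside these libraries. The summed level of 8 smooth muscle markers was 43089 CPM in S205A control 1, the highest of all 26 libraries, and 23199 CPM in S205A control 2. The 8 fibroblast markers summed to 2406 and 2039 CPM in these 2 libraries. Across the 9 libraries of the 22 series log2 Cdh5 and the log2 smooth muscle sum had r = -0.84 (rho = -0.80, adjusted p = 0.0244 for r and 0.112 for rho, two-sided exact permutation test, 42 relations), and r = -0.49 without S205A control 1 and 2, so the relation rests on those libraries. In the 17 others r was -0.07.

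In the 17 libraries outside the 22 series the levels of 8 members moved together, and those of Kdr and Emcn moved apart from them. Within the 22 series this division rested on S205A control 1 and 2. Correlation with Cdh5 was computed for the 9 other members, in log2 CPM, separately within the 22 series and within the 17 others. In the 17 others r with Cdh5 was 0.94 for Pecam1, 0.93 for Tie1, 0.92 for Vwf, 0.92 for Tek, 0.87 for Eng, 0.83 for Cldn5 and 0.80 for Sox17, with rho of 0.90, 0.87, 0.81, 0.81, 0.76, 0.61 and 0.72 and adjusted p of at most 0.000409 for r and 0.0173 for rho (two-sided permutation test with 100000 resamples, 18 relations). Kdr had r = 0.03 (rho = -0.03, adjusted p = 0.914) and Emcn r = -0.15 (rho = -0.24, adjusted p = 0.637) by the same permutation test. Without WT 3 and Y308F control 1, the libraries farthest from the median of Cdh5, r of those 7 genes ran from 0.61 to 0.88. The members other than Kdr and Emcn thus kept a positive relation without the extreme libraries here.

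In the 22 series the same 7 genes had r with Cdh5 from 0.94 for Sox17 to 1.00 for Tek, past the threshold by the exact permutation test, with the largest adjusted p, 0.0111, for Sox17. By rank Sox17 (rho = 0.43, adjusted p = 0.30) and Tie1 (rho = 0.70, adjusted p = 0.0599) were not past it by the exact permutation test. Without S205A control 1 and 2 r was 0.95 for Tek, 0.87 for Pecam1, 0.86 for Vwf and 0.82 for Eng, but 0.50 for Cldn5, 0.18 for Tie1 and -0.14 for Sox17. For these last 3 the relation within the 22 series rests on those 2 libraries. Kdr (r = 0.47, rho = 0.43) and Emcn (r = -0.13, rho = 0.05) were not past the threshold in the 9 libraries (adjusted p = 0.235 and 0.775 for r, exact permutation test). Without S205A control 1 and 2 their r with Cdh5 was 0.66 and 0.59, above that of Cldn5, Tie1 and Sox17, and again not past it (adjusted p = 0.15 and 0.232, exact permutation test).

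Kdr and Emcn followed each other. Their r was 0.94 in the 17 libraries (rho = 0.92, adjusted p = 0.00042 for both over 42 relations, with both unadjusted p at the smallest that 100000 resamples of the permutation test can give) and 0.94 without WT 3 and Y308F control 2. In the 9 of the 22 series it was 0.77 (rho = 0.62, adjusted p = 0.0768 and 0.225, exact permutation test). Emcn was highest in Y308F control 2 at 14.2 CPM and WT 3 at 13.9 CPM, and Kdr was highest in Y308F control 2 at 46.1 CPM. WT 3 was at the same time the lowest of the 17 libraries for Pecam1, Cdh5, Cldn5, Tek, Tie1 and Vwf. Emcn was lowest of all 26 in S205A control 2 at 0.706 CPM, the library highest in Pecam1, Vwf, Tie1, Cldn5 and Sox17, although this value rests on 12 counts. This family of relations was added after the values were seen.

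Emcn also moved with markers of 2 other cell types. In the 17 libraries its r was 0.69 with the summed level of 8 adipocyte markers (rho = 0.62, adjusted p = 0.0244 for r and 0.104 for rho) and 0.69 with that of 6 macrophage markers (rho = 0.72, adjusted p = 0.0244 and 0.0367), by permutation test. Without WT 3 and Y308F control 2 these were 0.47 and 0.60. WT 3 had the highest adipocyte sum of all libraries, 3138 CPM. The part of fat around the vessels or of blood cells in the level of Emcn was not tested.

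**Figure D2:**
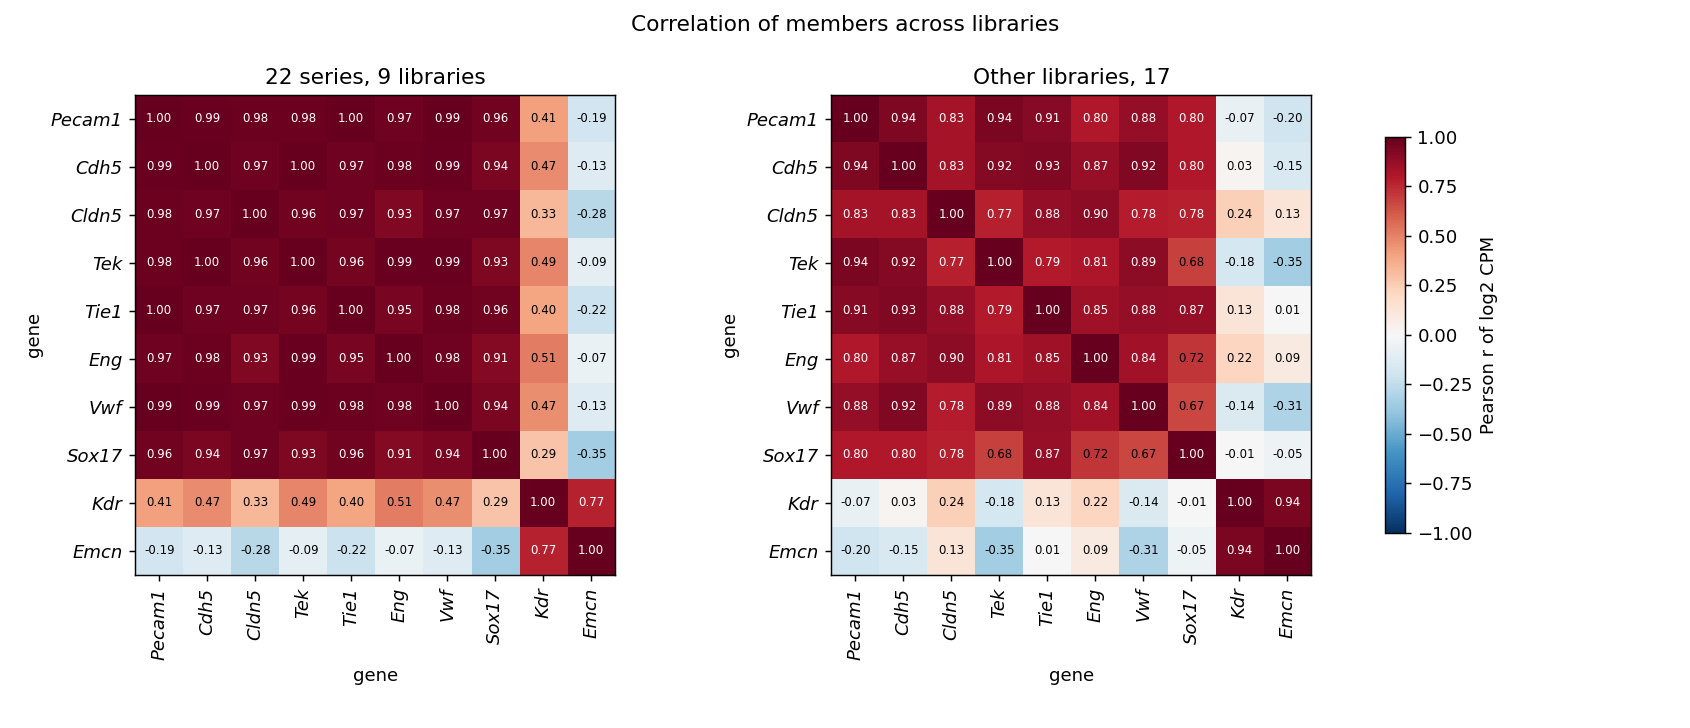
Pearson r of log2 CPM between each pair of members, in the 9 libraries of the 22 series and in the 17 others; colours run from -1 to 1. The 28 pairs among the 8 members other than Kdr and Emcn lie between 0.914 and 0.996 on the left and between 0.671 and 0.940 on the right, and Emcn has r of at most 0.13 with any of the 8.

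Loss of Panx1 was compared with WT to ask what the channel's absence changes in the artery wall. No member passed the threshold of adjusted p under 0.05 (edgeR quasi-likelihood test, Benjamini-Hochberg adjustment), where 0.0309% of 16193 genes did, 5 genes, with 1817 at unadjusted p under 0.05. No member was among these 1817, and the KO and WT libraries of every member overlapped, as opposed to 18.8% of genes whose libraries did not. Vwf was at 853, 674 and 693 CPM in KO and at 1139, 1246 and 583 CPM in WT, a log2 difference of -0.40 ± 0.27 (SE). The low WT value came from WT 3, and without that library the difference was -0.67.
Eng was at 272, 235 and 261 CPM in KO and 335, 313 and 271 CPM in WT, so that 1 KO library reached just above the lowest WT. Its log2 difference of -0.24 ± 0.12 had the smallest adjusted p of the members, 0.515 by edgeR. The median log2 difference of the 10 was -0.05, against 0.01 for all genes tested. Emcn, at -0.32 ± 0.48, had the widest error of the members, and its sign changed without WT 3 or without KO 2.

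Against their own controls, the Y198F libraries had higher RNA of Eng, Cldn5, Sox17 and Tie1. These 4 of 10 members passed the threshold upward and 0 downward, in a comparison in which 15% of 16050 genes passed, 9.55% upward and 5.48% downward. The median log2 difference of the members was 0.29 and that of all genes 0.00. The mutation replaces a tyrosine of the channel by phenylalanine, and these libraries are those in which the mutation and the 22 series cannot be told apart.

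Endoglin differed most. Eng was at 485, 486 and 501 CPM in Y198F 1, 2 and 3, and at 339, 255 and 286 CPM in Y198F control 1, 2 and 3. The 3 mutant libraries lay within a few percent of each other and above every control. The log2 difference was 0.74 ± 0.12 (edgeR, adjusted p = 0.00295).

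Cldn5 was at 281, 270 and 256 CPM in the mutant libraries and at 193, 165 and 176 CPM in the controls. The groups did not overlap, and the log2 difference was 0.59 ± 0.11 (edgeR, adjusted p = 0.0043). Eng and Cldn5 kept their calls when any 1 of the 6 libraries was left out.

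Sox17 was at 179, 146 and 159 CPM in the mutant libraries and at 122, 87.7 and 121 CPM in the controls, again without overlap. Its log2 difference was 0.55 ± 0.14 (edgeR, adjusted p = 0.0219). Tie1 was at 317, 356 and 359 CPM against 276, 239 and 270 CPM, with a log2 difference of 0.39 ± 0.11 (edgeR, adjusted p = 0.0344).
Both calls were lost in some of the fits with 1 library fewer. Sox17 missed the threshold without Y198F control 2 (0.40, adjusted p = 0.058 by edgeR), Y198F control 3 (0.61, 0.0601) or Y198F 1 (0.46, 0.0714). Tie1 missed it when any 1 library other than Y198F 1 was left out (edgeR, adjusted p from 0.0542 to 0.118), with a log2 difference of 0.32 to 0.43 in those 5 fits.

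The other members did not pass. Vwf was at 1485, 1415 and 1764 CPM against 1294, 737 and 1083 CPM, without overlap, and its log2 difference of 0.58 ± 0.19 had an adjusted p of 0.0656 (edgeR). Without Y198F control 1 Vwf passed, at 0.77 and adjusted p = 0.0283 by edgeR. Cdh5, at 321, 309 and 314 CPM against 290, 233 and 305 CPM, was also without overlap but differed by only 0.18 ± 0.12. Thus 6 of 10 members had all mutant libraries above all controls, against 19% of genes tested. Pecam1 differed by 0.01 ± 0.13 and Tek by -0.22 ± 0.12, with overlapping libraries. Kdr, at 8.86, 19.2 and 36.7 CPM in the mutant libraries, and Emcn, at 1.74, 3.82 and 7.78 CPM, varied over 4-fold within the mutant group and gave 0.12 ± 0.65 and -0.34 ± 0.68.

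Markers of other cells moved with this comparison. The 8 fibroblast markers summed to between 3055 and 4231 CPM in Y198F and between 4442 and 6064 CPM in its controls, and the 5 Schwann cell markers to between 83.8 and 97.7 against 105 and 182 CPM, without overlap in either. Mbp and S100b of the Schwann list were lower by -0.85 ± 0.19 and -0.89 ± 0.20 (edgeR, adjusted p = 0.0125 and 0.012). The smooth muscle sums overlapped, from 24082 to 32546 against 25378 to 29775 CPM. Of these 8 smooth muscle markers Tagln and Smtn passed upward and Lmod1 downward. The adipocyte sums were 236, 564 and 2304 CPM in Y198F 1, 2 and 3 against 395 to 524 CPM in the controls, the red cell sums 65.5, 45.4 and 385 against 15.6 to 130 CPM, and the mesothelial sums 0.543, 0.159 and 33.2 against 1.29 to 5.71 CPM. Y198F 3, also the mutant library highest in Kdr and Emcn, was the highest of the 6 libraries in all 3 sums. All 8 adipocyte markers (median log2 difference 1.25) and all 5 red cell markers (1.55) were above 0. Without Y198F 3, Eng was at 0.73, Cldn5 at 0.63 and Sox17 at 0.56, each past the threshold (edgeR), while Kdr turned from 0.12 to -0.49 and Emcn went to -0.999, neither past it. No tested marker of fibroblasts, adipocytes, macrophages, lymphoid cells, red cells, platelets, mesothelium or pericytes passed. Only 3 of 6 lymphoid, 3 of 6 platelet and 1 of 4 mesothelial markers had enough counts to be tested. Of the 6 platelet markers 1 was at 0 in all control and 2 in all mutant libraries. The part of the markers, and that of the lists named, in the members' difference was not tested.

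A second set of controls shares the 22 series with the Y198F libraries. Against S205A control 1, 2 and 3, 0 of 10 members and 0% of 15879 genes passed (edgeR; 492 genes and 1 member, Emcn, at unadjusted p under 0.05), and every member's libraries overlapped, where 8.23% of genes' did not. Eng differed by 0.20 ± 0.54, Cldn5 by -0.15 ± 0.64, Tie1 by -0.09 ± 0.63 and Sox17 by -0.17 ± 0.63. Kdr and Emcn had the largest values, 1.42 ± 0.60 and 1.60 ± 0.64. Both were highest in Y198F 3, Kdr at 36.7 CPM against 8.86 and 19.2 in Y198F 1 and 2, and Emcn at 7.78 against 1.74 and 3.82. Because S205A control 1 and 2 are the lowest and highest libraries of the other 8 members, the sign of those 8 followed whichever was kept. Without S205A control 2 the 8 members other than Kdr and Emcn were higher in Y198F, by 0.46 for Sox17 to 0.98 for Tek, and without S205A control 1 they were lower, by -0.21 for Eng to -0.62 for Sox17. These controls also serve the S205A comparison.

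The series could be compared with the other libraries inside the S205A line, where 6 libraries belong to it and 2 (S205A control 4 and S205A 1) do not. Of 17256 genes 5.02% passed, and 0 of 10 members. No member's libraries were separate, against 24.8% of genes'. The log2 differences of Sox17 (0.57 ± 0.60), Cldn5 (0.49 ± 0.62), Eng (0.45 ± 0.53), Vwf (0.26 ± 0.75) and Tie1 (0.25 ± 0.59) were above 0, as between Y198F and its controls, with wide errors, while Tek had -0.49 ± 0.59, Kdr -0.74 ± 0.53 and Emcn -0.82 ± 0.53. Sizes and signs turned on single libraries. Without S205A control 1 Sox17 passed the threshold at 0.79 (edgeR), with Cldn5 at 0.67, Eng at 0.64, Vwf at 0.50 and Tie1 at 0.49. Without S205A control 2 they were at 0.25 for Sox17, 0.11 for Cldn5, 0.13 for Eng, -0.28 for Vwf and -0.11 for Tie1, and no member passed. Of the markers of other cells, the smooth muscle gene Tagln was higher in the series (1.30 ± 0.22) and the mesothelial gene Upk3b lower (-6.38 ± 1.19). This contrast shares no library with the Y198F comparison. With all 8 libraries its sign was the same in 7 of 10 members, against 76.9% of 15827 genes, and over the 10 members the log2 differences of both contrasts had r = 0.89 (rho = 0.85), over all genes tested in both r = 0.77.

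In both contrasts the members tended to follow the base composition of their exons. The GC content of the union of exons was 39.1% for Emcn, 46.3% for Tek, 47.6% for Kdr, 48.5% for Pecam1, 52.3% for Cdh5, 52.5% for Sox17, 52.7% for Vwf, 55.3% for Eng, 56.6% for Tie1 and 60.5% for Cldn5. Over the 10 genes it had r = 0.87 (rho = 0.89) with the Y198F difference and r = 0.86 (rho = 0.82) with the series difference in the S205A line. All 4 members that passed in Y198F were at 52.5% or more and the 4 lowest in GC lay at or below 0.12. Over all genes tested r was 0.27 (rho = 0.43) in Y198F and 0.26 (rho = 0.46) for the series, and exon length had r of 0.05 and -0.11 with the differences of the members. These are descriptions over genes measured in the same libraries, and the part of base composition in the Y198F difference was not tested.

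**Figure D3:**
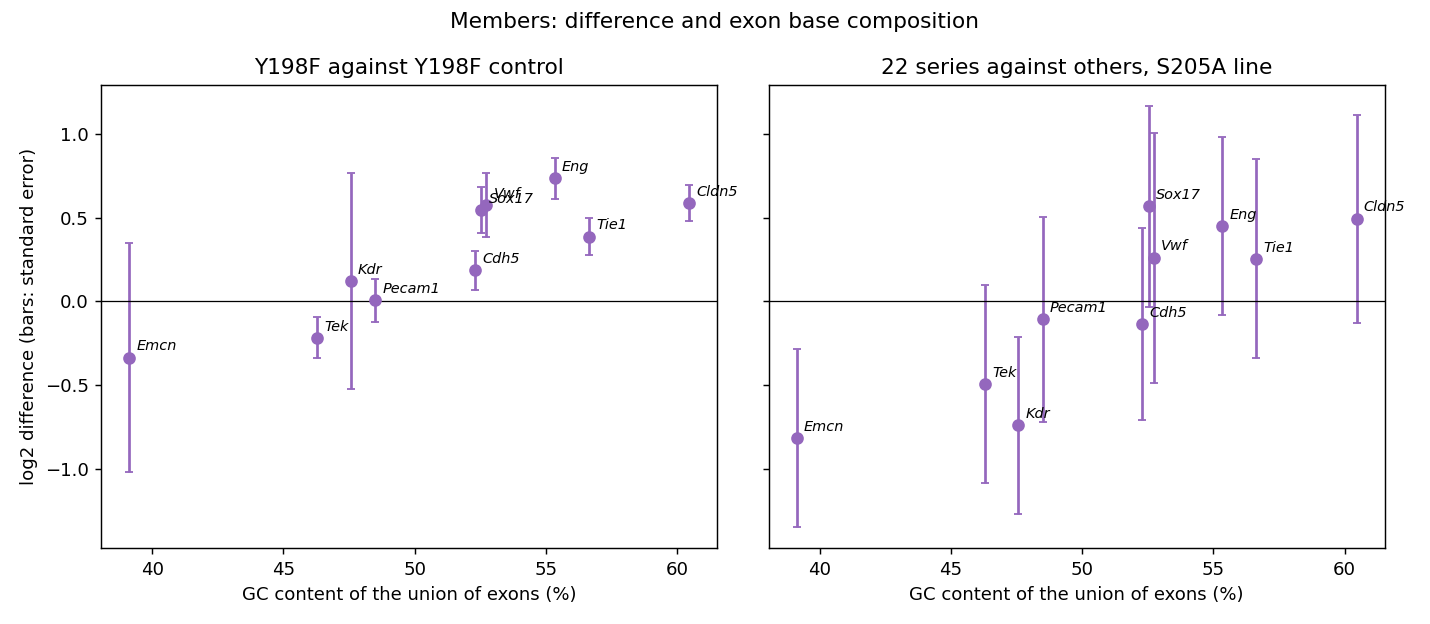
Log2 difference of each member (vertical, bars are standard errors) against the GC content of its exons in percent (horizontal), for Y198F against its controls and for the 22 series against the other libraries of the S205A line. In both panels Emcn, at 39.1% GC, is the lowest point and the 5 genes from Sox17 upward in GC lie above 0.

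When all 8 groups were fitted together, the Y198F difference of Eng was 0.74 ± 0.39 and 0 members passed (edgeR, adjusted p = 0.283 for Eng, 0.48 for Cldn5, 0.478 for Sox17 and 0.631 for Tie1). The cause of that loss was not tested. With the series as a further term Eng was at 0.29 ± 0.56, Cldn5 at 0.10 ± 0.64, Tie1 at 0.13 ± 0.59 and Sox17 at -0.02 ± 0.58, and 0 genes passed. Sox17 changed sign there. The series term rested on the S205A line, the only line with libraries of both kinds, and so in part on S205A control 1 and 2. It therefore does not separate series from mutation in the Y198F comparison.

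In the S205A group, in which a serine is replaced by alanine, 0 members and 0% of 15709 genes passed (edgeR; 451 genes and 0 members at unadjusted p under 0.05), and no member's libraries were separate, against 1.81% of genes'. Cdh5 was at 275, 360, 291 and 231 CPM in S205A 1 to 4 and at 86.6, 535, 281 and 382 CPM in S205A control 1 to 4, so that all mutant libraries lay inside the span of the controls. Its log2 difference was -0.15 ± 0.44. Vwf, at 1196, 1817, 1417 and 1209 CPM against 289, 3342, 1315 and 1419 CPM, showed the same arrangement, with -0.18 ± 0.56.
The direction rested on 2 control libraries. Without S205A control 2 all 10 members were higher in S205A, from 0.15 for Sox17 to 0.62 for Cldn5, and without S205A control 1 the 8 members other than Kdr and Emcn were lower, from -0.30 for Cldn5 to -0.63 for Sox17. Emcn differed by 0.51 ± 0.53 and Kdr by 0.37 ± 0.49. Within the 6 libraries of the 22 series, 0 members passed, and values ran from -0.29 ± 0.61 for Sox17 to 0.86 ± 0.60 for Emcn. The 8 fibroblast markers summed to between 3249 and 8331 CPM in S205A and between 2039 and 3017 CPM in its controls, without overlap, and the part of this in the members' values was not tested.

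In the Y308F group, again a tyrosine replaced by phenylalanine, 0 members and 0% of 16037 genes passed (edgeR; 706 genes and 0 members at unadjusted p under 0.05), and no member's libraries were separate, against 10.7% of genes'. Eng was at 306, 420 and 363 CPM in Y308F and at 813, 336 and 290 CPM in the controls, a log2 difference of -0.40 ± 0.39. Pecam1 was at 2685, 4212 and 2797 CPM against 4420, 2144 and 2553 CPM, or 0.10 ± 0.31. In both genes Y308F control 1 was the highest library.
Without Y308F control 1 the 8 members other than Kdr and Emcn were all higher in Y308F, from 0.02 for Sox17 to 0.52 for Tek. With it 6 of those 8 were lower. Kdr (-0.30 ± 0.40) and Emcn (-0.42 ± 0.47) changed sign instead without Y308F control 2, the library highest in both, to 0.14 and 0.21. The median of the members was -0.22 and that of all genes -0.03.

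**Figure D4:**
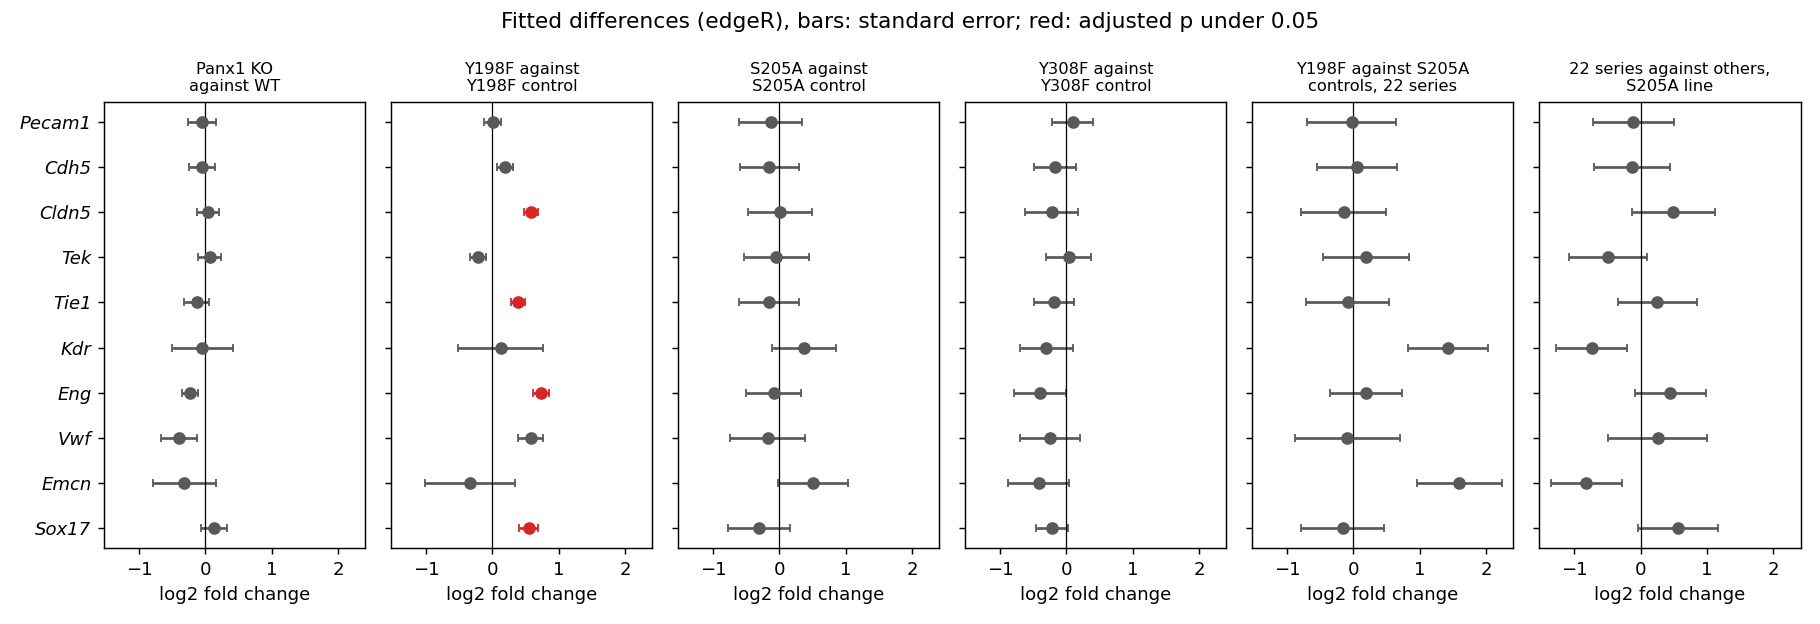
Log2 difference of each member in the 4 mutant comparisons and in the 2 that involve the 22 series, with standard errors; red points passed adjusted p under 0.05. Eng, Cldn5, Sox17 and Tie1 are red in Y198F against its controls and no point is red elsewhere.

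Whether the effects differed between mutations was tested as a difference of effects for each of 6 pairs of mutations, 60 tests on members. Eng passed in 1 of them: its KO effect was 0.97 lower than its Y198F effect (-0.97 ± 0.17, edgeR, adjusted p = 0.00332), in a test in which 11.6% of 17347 genes passed. All 3 KO libraries were below the WT mean and all 3 Y198F libraries above every control. With all 8 groups in 1 fit the value was -1.0 (edgeR, adjusted p = 0.33), and with the series term -0.53 ± 0.68. Vwf had the same difference, -0.97 ± 0.37, and did not pass (edgeR, adjusted p = 0.11). No member passed for KO against Y308F (0.0116% of genes passed), KO against S205A (0.00562%), Y198F against Y308F (5.7%), or S205A against Y198F or Y308F (0% of genes in each).

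Genes of the pathways around the members were counted from lists, which were chosen with earlier results of these data known. The counts are therefore descriptions and not tests of the lists. In KO, S205A, Y308F and Y198F against the S205A controls, 0 genes of any list passed. In Y198F against its own controls the endothelial transcription factors had 6 of 18 genes called upward and 1 downward, against 9.55% of all genes upward and 5.48% downward, among them the member Sox17 itself, Sox18 (0.87 ± 0.14), the SOXF relative of Sox17, and Foxc2 (0.60 ± 0.11), a forkhead factor; Erg, an ETS factor of endothelium, was the 1 lower (-0.54 ± 0.11). The other lists lay nearer to those shares. Of 23 other panendothelial genes 4 rose and 2 fell, with Ramp2, the adrenomedullin receptor partner, at 0.77 ± 0.12 and Nos3, endothelial nitric oxide synthase, at 0.62 ± 0.14, while Cd93, a C-type lectin receptor, fell at -0.59 ± 0.12.
Of 15 junction genes 3 rose, Cldn5 itself, Jup (plakoglobin, 0.63 ± 0.12) and Esam (an adhesion molecule, 0.44 ± 0.10). Of 14 arterial genes 2 rose, Gja4 (connexin 37, 0.98 ± 0.12) and Dll4 (a Notch ligand, 0.49 ± 0.15). Gja4 also passed for the 22 series inside the S205A line, at 0.90 ± 0.20, the only gene of the endothelial lists to do so.
In the pathways of the receptors the called shares were near the 15% of all genes in either direction. In the angiopoietin and TIE list only Tie1 of 7 passed. In the VEGF list only Vegfb, a ligand of VEGF receptor 1, passed of 10, at 0.90 ± 0.16. Of 14 tested genes of the BMP9 and endoglin list Eng and the ligand gene Tgfb1 (0.53 ± 0.10) passed. Of 10 venous genes Selp, P-selectin, passed at 0.50 ± 0.11, and of 10 capillary and 7 lymphatic genes 0 passed. The median of the capillary list was 0.83 with 9 of 10 genes above 0 and that of the lymphatic list -1.13 with 0 of 7 above 0, both without a gene past the threshold. The capillary list holds the member Kdr and the adipocyte marker Fabp4. Kdr turned to -0.49 without Y198F 3, the mutant library with the highest adipocyte sum. The medians of the lists without that library were not computed. All calls in these lists share the limit that the 22 series and Y198F cannot be told apart.

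In the authors' deposited tables of comparisons no member passed adjusted p under 0.05. In the authors' deposited table for Y198F, Eng has a log2 fold change of 0.29, Cldn5 0.00, Kdr 0.98 and Emcn 1.15. The fold changes of the members in that table were matched to within 2.33e-06 by setting Y198F against the 4 S205A controls, and differed by up to 1.5 from those against the Y198F controls. The authors' deposited tables for KO, S205A and Y308F matched their labelled controls.

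The genes whose levels were most like the members' were found over 26 libraries after the group means and the series were removed. Among 12907 genes, the highest r with the mean of the 10 members belonged to Galnt10 (0.97), a glycosyltransferase gene, Arap3 (0.97), a GTPase-activating protein gene, Ephb4 (0.97), the ephrin-B2 receptor, and Sulf2 (0.96), an extracellular sulfatase. Hfe (0.96), Npr1 (0.96), the atrial natriuretic peptide receptor, St3gal4 (0.96), a sialyltransferase, and Ece1 (0.96), the endothelin-converting enzyme, came next. Without S205A control 1 and 2 these 8 ran from 0.88 for Ece1 to 0.94 for Ephb4. Of the members, Cdh5 ranked 9th by the same measure, Tie1 30th, Eng 31st, Sox17 390th, Kdr 1997th and Emcn 5788th, each member being part of the mean it is ranked against. This order rests in part on S205A control 1 and 2: without them r rose from 0.50 to 0.54 for Kdr and from 0.02 to 0.48 for Emcn, and fell from 0.86 to 0.49 for Sox17.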

How the data were processed

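RNA of 26 artery libraries was sequenced as paired reads, mapped with STAR 2.7.9a to GRCm39 and counted with featureCounts, per the labels and the submitters' processing notes. The deposited counts are whole reads per gene; the annotation and strand setting are not given in the sources used here. The normalized signal values deposited by the authors are counts divided by DESeq2 size factors. The log2 fold changes, Wald scores and p-values deposited by the authors came from DESeq2 1.46.0, per the submitters' processing notes.

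The deposited counts were tested here with edgeR 4.0.16 in R 4.3.3 (TMM scaling, filterByExpr, quasi-likelihood test, adjusted p threshold 0.05), each mutant against its labelled controls in its own fit, and checked on simulated data. CPM used TMM sizes over all libraries; CPM per kb used exon lengths of GENCODE vM39, to which 56310 of 57010 identifiers matched. Correlations used log2 CPM with a prior count of 2. Their permutation tests were computed with numpy 2.4.6, and ranks with scipy 1.17.1. Alternatives were DESeq2 1.42.0, limma 3.58.1 voom, DESeq2 size factors, no filter, joint fits, a replicate block and leaving out libraries. Where a group of 2 remained, its spread was pooled. The promoter window of 1 member is not reported here. Members and lists were chosen with earlier results of these data known. All members, up to 3 genes of each list by adjusted p, and the 8 genes most alike in level were named.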

Additional observations from a re-analysis of the deposited data

Results flagged for a closer look

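1 result was marked because 2 mutations had different effects by a direct test. The log2 effect of Panx1 loss on Eng was 0.97 lower than that of Y198F (-0.97 ± 0.17, edgeR, adjusted p = 0.00332), with Eng at 256 ± 19.3 CPM in KO and 306 ± 32.5 CPM in WT, and at 491 ± 9.16 CPM in Y198F and 294 ± 42.5 CPM in its controls (SD, n = 3 each). The Y198F libraries all belong to the 22 series and their controls, like the KO and WT libraries, do not, so that series and mutation cannot be told apart. 60 such tests were made on members. In the groups of 4 libraries, 20 tests for a single outlying library marked 0, where chance marks about 1 in 20.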

How the results depend on the processing

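Members past the threshold in KO, S205A, Y308F and Y198F against the S205A controls were 0 under every alternative. In Y198F against its controls they were 4 (2411 genes), and 5 with DESeq2 (2613 genes) and without a count filter (3158 genes), Vwf being added in both. They were 2 to 4 when a library was left out. With all 8 groups in 1 fit they were 0 (922 genes), as with the series as a further term (0 genes, Sox17 reversed to -0.022). Genes ran from 908 (without Y198F control 3) to 2128 when a library was left out. For KO against WT, gene counts were 107 with DESeq2, 10 with limma, 243 without a filter, and 1 to 5 with a library left out. For S205A they were 40 with DESeq2 and 0 to 1 with a library left out, for Y308F 7 without a filter and 0 to 1, and for Y198F against the S205A controls 35 with DESeq2 and 9 without a filter. For the 22 series in the S205A line they were 1318 with DESeq2 and 82 (without S205A control 4) to 1140 with a library left out, with 0 to 1 members. In the difference of KO and Y198F effects, 1 member passed in the main fit, where 11.6% of genes passed. Members past the threshold were 0 in both joint fits and 2 with DESeq2 (Eng and Vwf), and the share of all genes was not counted there. Members whose correlation with Cdh5 passed the threshold in the 22 series fell from 7 to 4 without S205A control 1 and 2 (Pecam1, Tek, Eng and Vwf), with Sox17 at -0.14. Values under the threshold changed sign in 64 of 400 member results when a library was left out. Replicate numbers did not pair the libraries: same-number correlations ran from -0.28 to 0.23, and not every library matched its own number best. With the replicate block, 3 members (Tie1 lost) and 1760 genes passed in Y198F, and 18 genes in KO. In the difference of effects 2 members passed with that block (Cldn5 and Eng), and the share of all genes was not counted. The cause of these changes was not tested. Emcn has the fewest counts of the members, 12 to 275 per library.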

Other observations

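Emcn had companions of its own, looked up after its separation from the other members was seen. With group means and the series removed, the genes most like Emcn over 26 libraries were Cd300lg (r = 0.96), Btnl9 (0.92), Aqp1 (0.88), Nrp2 (0.87), Aqp7 (0.87), Gpihbp1 (0.85), Cd36 (0.85) and Lgals12 (0.85). Cd300lg, Gpihbp1 and Cd36 are on the capillary endothelial list used above, and Nrp2 is on the VEGF list. Gpihbp1 carries lipoprotein lipase across capillary endothelium. Aqp7 and Cd36 are channels and carriers for glycerol and fatty acids, and Lgals12 is a galectin of adipocytes. With the mean of the 10 members these genes had r of -0.09 for Nrp2 to 0.29 for Gpihbp1 over the 26 libraries, and of 0.30 to 0.46 for the same genes without S205A control 1 and 2, where Emcn's own r with that mean was 0.48.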
